A study of Mus musculus with 18 samples.

Results

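The genes described here encode class I phosphoinositide 3-kinase (PI3K): its 4 catalytic subunits (Pik3ca, Pik3cb, Pik3cd and Pik3cg), its 5 regulatory subunits (Pik3r1, Pik3r2, Pik3r3, Pik3r5 and Pik3r6) and the adaptor Pik3ap1. They were chosen by gene symbol, all 10 were present among the 16474 genes of the table, and all 10 passed the filter on low values. RNA was sequenced from macrophages grown out of bone marrow of C57BL/6 mice aged 8 weeks, either wild type (WT) or p110g-/-, that is, lacking p110gamma, the protein product of Pik3cg. All cells had 6 days of culture in M-CSF, the macrophage growth factor, at 50 ng/ml, and all then received M-CSF at 20 ng/ml. The M-CSF group had nothing else for 24 h, the IFNg/LPS group also had interferon gamma and lipopolysaccharide (100 ng/ml) for 24 h, and the IL-4 group also had interleukin 4 (20 ng/ml) for 48 h. With 2 genotypes, 3 stimuli and 3 libraries in each, there were 6 groups and 18 libraries. How the p110g-/- allele was made, which exons it lacks, and whether a group's 3 libraries are from different mice, are not given in the sources used here. P-values therefore measure the spread between libraries, which may be technical.

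Class I PI3K adds a phosphate to the membrane lipid PIP2 and so makes PIP3, which recruits Akt and other kinases and exchange factors. Class IA enzymes pair p110alpha, p110beta or p110delta with a regulatory subunit of the p85 type and act below tyrosine kinase receptors such as the M-CSF receptor. The class IB enzyme pairs p110gamma with p101 or p84 and acts below G protein-coupled receptors through G beta-gamma subunits and Ras. White blood cells are rich in p110delta and p110gamma, whereas p110alpha and p110beta are made in most tissues. The question here was whether RNA of the other subunits differed where p110gamma was lost.

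Values are normalised signals, that is, read counts divided by 1 factor per library. A library held 40.1 to 69.6 M (1e6) reads over the genes of the table, and the signal of 3 reads, the most that a count of 0 allows, was 2.15 to 4.74. Every member lay above that floor in every library. The 8 macrophage markers in the table, led by Lyz2, summed to 450218 to 1.04e+06 per library. Summed markers of other cells were lower: 6 B cell markers reached at most 632, 5 T and NK cell markers 275.5, 4 mast cell and basophil markers 354, 6 fibroblast and stromal markers 3619, and 8 neutrophil markers 32170 (led by S100a9, and with Elane at 0 in both IFNg/LPS groups). The sum of 6 dendritic cell markers was 1625 to 4986 in WT IFNg/LPS and 7966 to 20765 in p110g-/- IFNg/LPS, led by Ccr7, which activated macrophages can also express, and at most 559 in the other groups. The part of such cells in the results was not tested, and in these bulk samples fewer cells of a type cannot be told apart from less RNA per cell.

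Per kb of exon, the scale on which genes can be compared, Pik3ap1 and Pik3r5 stood highest in WT macrophages in M-CSF, at 4950 ± 638 and 2616 ± 224 (SD, n = 3). Pik3ap1 encodes BCAP, an adaptor that binds p85 and ties Toll-like receptors and the B cell receptor to PI3K, and Pik3r5 encodes p101. Among catalytic subunits Pik3cd (p110delta) was the most abundant at 1519 ± 212 per kb, ahead of Pik3cg at 837 ± 30.2, Pik3cb (p110beta) at 627 ± 41.0 and Pik3ca (p110alpha) at 499.6 ± 17.8. The ranges of these 4 did not overlap. Pik3r1 (p85alpha and its shorter forms) at 615 ± 56.0 per kb overlapped both Pik3cb and Pik3r2 (p85beta, 584 ± 24.3). Pik3r6 (p84) stood at 285 ± 9.56, and Pik3r3 (p55gamma) was nearly absent at 5.05 ± 1.27. Lengths were those of the GENCODE M21 exons (GRCm38), whereas the authors counted reads on mm9, so these levels carry any difference between annotations.

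Pik3cg RNA was lower in p110g-/- macrophages kept in M-CSF or IL-4, to 37.7% and 32.3% of the WT mean. WT libraries 1, 2 and 3 had signals of 5307.5, 5330.3 and 4993.5 in M-CSF, where p110g-/- libraries had 1887.5, 2045.8 and 1965.8. In IL-4 the WT signals were 3068.2, 2952.9 and 3280.5, and the p110g-/- signals were 955.6, 1083.3 and 964.8. The genotypes were far apart in both conditions (log2 fold changes -1.41, SE 0.23, adjusted p = 0.0027, and -1.63, SE 0.23, adjusted p = 0.00063, limma). Values are totals per gene and do not show which exons the remaining reads came from.

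In IFNg/LPS the Pik3cg signals of the genotypes overlapped. WT libraries 1, 2 and 3 had 3559.5, 2309.0 and 2604.2, and p110g-/- libraries had 3691.4, 1410.5 and 2036.7. The ratio of p110g-/- to WT was 1.04 between the libraries numbered 1, 0.611 between those numbered 2 and 0.782 between those numbered 3, compared with 0.294 to 0.394 in M-CSF and IL-4. The log2 fold change was -0.34 (95% interval -0.84 to 0.16, adjusted p = 0.37, limma). Without p110g-/- library 1 it was -0.71 (adjusted p = 0.0070), and with only the libraries numbered 2 and 3 it was -0.53 (adjusted p = 0.023). The genotype effect was smaller in size in IFNg/LPS than in M-CSF by 1.07 on the log2 scale (SE 0.33), which did not pass the test of the difference (adjusted p = 0.10 by limma, 0.019 by DESeq2). Without p110g-/- IFNg/LPS library 1 the difference was 0.69 (adjusted p = 0.086), without library 2 of that group it was 1.39 (adjusted p = 0.020), and with no libraries numbered 1 it was 0.83 (adjusted p = 0.031).

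For other genes that differed between genotypes, the p110g-/- IFNg/LPS libraries were set beside the WT IFNg/LPS libraries. Leaving out Pik3cg, 99 genes differed between genotypes in the same direction and at least 2-fold (a log2 fold change of 1 in size) in both M-CSF and IL-4. The IFNg/LPS libraries did not enter these fold changes. They did enter the estimate of spread behind the calls, which came from the fit of all 18 libraries, so the choice was not independent of them. Of the 99 genes, 88 lay beyond all 3 WT IFNg/LPS libraries in that direction in p110g-/- library 1, compared with 87 and 91 in libraries 2 and 3. The share of all tested genes that lie so was not counted, nor was the place of each WT library. No test was made of these counts.

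**Figure D1:**
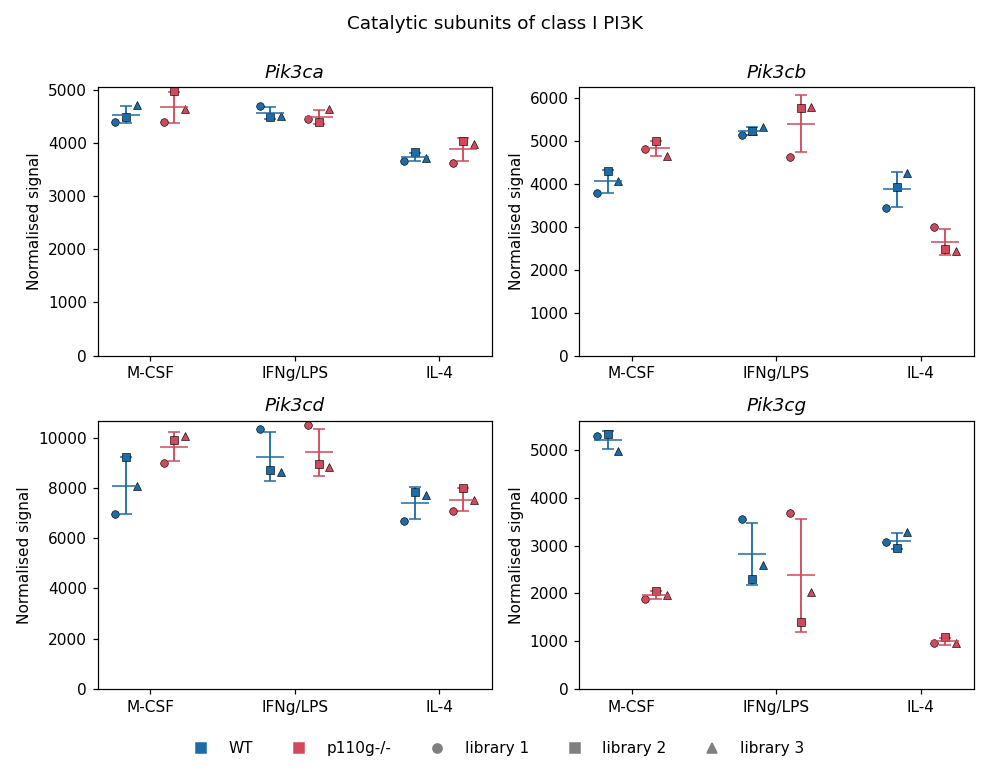
Normalised signal of the 4 catalytic subunit genes in each library (symbols), with the mean and SD of 3 libraries, in WT (blue) and p110g-/- (red) macrophages under each stimulus. Pik3cg separates the genotypes in M-CSF and IL-4 and not in IFNg/LPS, and Pik3cb is lower in all 3 p110g-/- IL-4 libraries than in any WT IL-4 library.

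None of the other subunits was called higher in p110g-/- cells under any stimulus. Of all 10 members, 0 were called higher in M-CSF, IFNg/LPS or IL-4 by limma, by edgeR or by DESeq2, against 1.06%, 6.94% and 1.34% of all 15627 tested genes by limma. At an unadjusted p under 0.05, 2 were higher in M-CSF (Pik3cb and Pik3cd) and 0 in the others. In either direction 4, 1 and 3 of the 10 members reached that p in M-CSF, IFNg/LPS and IL-4. Over all tested genes the shares were 13.2%, 28.9% and 15.0%. Called lower were 2 members in M-CSF (Pik3cg and Pik3r1), 0 in IFNg/LPS and 2 in IL-4 (Pik3cg and Pik3cb), against 1.27%, 7.79% and 1.99% of tested genes. Since Pik3cg is the targeted gene, 1 member beside it was called in M-CSF and 1 in IL-4. In IFNg/LPS, where 14.7% of tested genes passed in either direction, none of the members did by limma, edgeR or DESeq2. There 1 member had an unadjusted p under 0.05 (Pik3ap1). Same-numbered libraries deviated together in that comparison, which these fits left out. With the replicate number as a block, limma called Pik3ap1 lower (adjusted p = 0.0031), among 2974 genes called in all. The median log2 fold change of the members was -0.01 in M-CSF, -0.04 in IFNg/LPS and -0.01 in IL-4, and over all genes it was 0.00 in each.

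**Figure D2:**
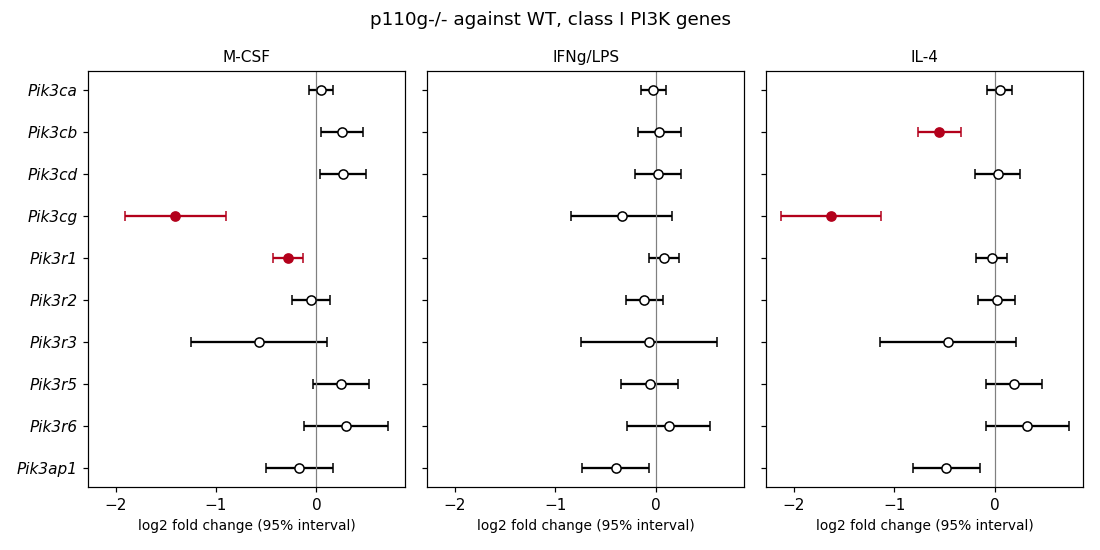
Log2 fold change of p110g-/- against WT for each member under each stimulus, with its 95% interval from limma; filled red points passed at an adjusted p of 0.05. Pik3cg and Pik3r1 passed in M-CSF, Pik3cg and Pik3cb in IL-4, and no member in IFNg/LPS.

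Pik3cb, the ubiquitous p110beta, which like p110gamma can be switched on by G beta-gamma, was lower in p110g-/- cells in IL-4. There the WT signals were 3452.7, 3926.6 and 4248.0 and the p110g-/- signals 3009.6, 2489.4 and 2449.1, with no overlap. The means differed by -31.6%, or -0.55 as log2 fold change (SE 0.10, adjusted p = 0.0048, limma), and the call held in each of 16 alternative settings (adjusted p at most 0.045). In M-CSF the order was the other way, with 3784.9, 4315.1 and 4082.0 in WT and 4822.1, 5009.6 and 4663.3 in p110g-/- libraries. These did not overlap either, but the log2 fold change of 0.25 (95% interval 0.04 to 0.46) did not pass over all genes (adjusted p = 0.27). The share of all tested genes without overlap between genotypes was not counted, here or for the members below. In IFNg/LPS the signals overlapped (0.04, 95% interval -0.17 to 0.25). The difference between the effects in IL-4 and M-CSF was -0.80 on the log2 scale (SE 0.14). It did not pass by limma (adjusted p = 0.10), where 0 of 15627 genes passed this interaction and 1156 had an unadjusted p under 0.05, nor by edgeR. It passed by DESeq2 (adjusted p = 0.00032) and without p110g-/- IL-4 library 1 (-0.90, adjusted p = 0.017).

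Pik3cd, the leukocyte p110delta, ran from 6662.1 to 10484.6 over the 18 libraries. In M-CSF it was 8081 ± 1128 in WT and 9639.9 ± 579 in p110g-/- cells, with overlap (log2 fold change 0.26, 95% interval 0.03 to 0.49, adjusted p = 0.29). In IFNg/LPS and IL-4 the log2 fold changes were 0.03 and 0.03, with 95% intervals of -0.20 to 0.26 and -0.20 to 0.26. Pik3ca, the p110alpha often mutated in tumours, was the steadiest catalytic gene, from 3624.5 to 4982.3 over all libraries. Its log2 fold changes between genotypes were 0.04, -0.02 and 0.05 in M-CSF, IFNg/LPS and IL-4, and the 95% intervals were -0.08 to 0.17, -0.14 to 0.10 and -0.07 to 0.17.

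The make-up of catalytic RNA shifted with the loss of Pik3cg. Of the 4 catalytic genes, summed per kb in each library, Pik3cg held 24.1% ± 1.98 in WT M-CSF, 12.9% ± 1.90 in WT IFNg/LPS and 17.2% ± 1.21 in WT IL-4. In p110g-/- cells its share was 9.33% ± 0.114, 10.8% ± 4.52 and 6.66% ± 0.245. Pik3cd held the largest share in all 6 groups, from 43.5% ± 2.85 in WT M-CSF to 58.6% ± 1.71 in p110g-/- IL-4. Shares are parts of the same sum, so those of the other genes rise when Pik3cg falls, even at unchanged levels. Pik3ca, Pik3cb and Pik3cd together summed to 2645 ± 259 per kb in the WT group and 3073 ± 139 in the p110g-/- group with M-CSF alone. That difference of 428 per kb was 82.1% in size of the Pik3cg difference of -521. Of the 428, 293 came from Pik3cd and 119 from Pik3cb. Neither gene passed in M-CSF (adjusted p = 0.29 and 0.27, limma). The ratio also leaves out the Pik3cg RNA that remained in p110g-/- M-CSF, at 316 per kb. No replacement can therefore be read from it. In IFNg/LPS the sum was 3048 ± 182 in WT and 3099.8 ± 67.7 in p110g-/- cells, a difference of 52.2 per kb. The Pik3cg difference there was -71.5, with SDs of 105 in WT and 189 in p110g-/- cells. Both differences were smaller than the SD of either group, so no replacement can be read from their ratio (73.0%). In IL-4 the same sum was 2400.4 ± 182 in WT and 2253 ± 71.3 in p110g-/- cells, a difference of -147 in the direction of the Pik3cg loss. Sums over members were not tested.

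**Figure D3:**
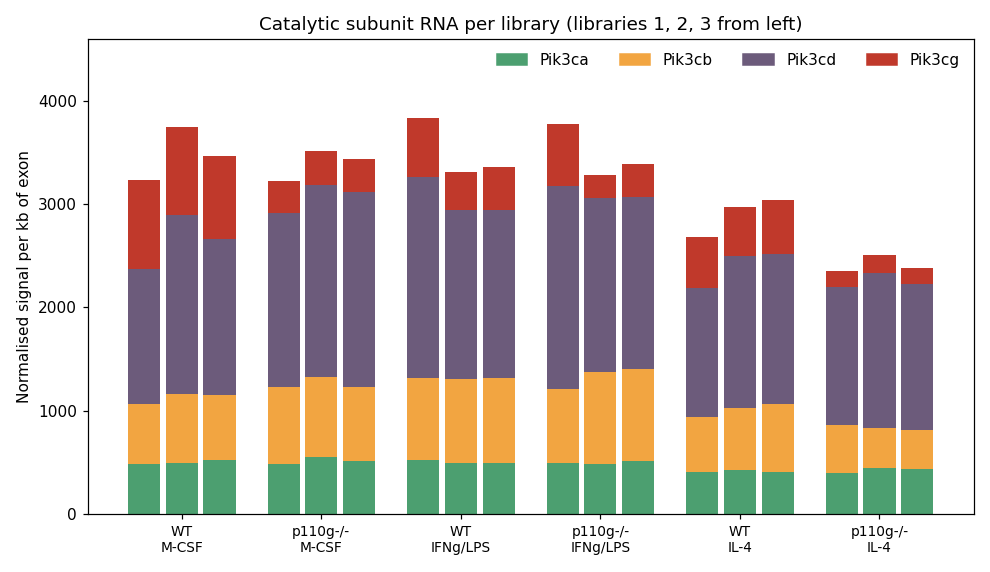
Normalised signal per kb of exon of the 4 catalytic genes, stacked, in each of the 18 libraries. The Pik3cg layer is thinner in p110g-/- M-CSF and IL-4 libraries, and the whole stack is lowest in p110g-/- IL-4, at 2414 ± 82.6 against 2899 ± 190 in WT IL-4.

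Among class IA regulatory subunits, Pik3r1 was lower in p110g-/- cells in M-CSF. Its signals were 5131.6, 4331.7 and 4489.0 in WT and 4103.7, 3711.3 and 3628.6 in p110g-/- libraries, which did not overlap. The log2 fold change was -0.28 (SE 0.07, adjusted p = 0.048, limma), close to the threshold. The call ended without WT library 1 (-0.21, adjusted p = 0.21) or 3 (0.081) and without p110g-/- library 2 (0.19) or 3 (0.17). It also ended in a fit of the 6 M-CSF libraries alone (0.16), without the filter on low values (0.051) and with plain moderation (0.080), which makes 7 of 16 alternatives; the adjusted p over all of them was 0.00715 to 0.209. In IFNg/LPS and IL-4 the signals overlapped, with log2 fold changes of 0.09 (95% interval -0.06 to 0.24) and -0.03 (-0.18 to 0.12).

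Pik3r2 and Pik3r3 gave no call between genotypes. Pik3r2, the p85beta gene, had log2 fold changes of -0.06, -0.11 and 0.02 in M-CSF, IFNg/LPS and IL-4, and their 95% intervals lay within -0.30 and 0.21. Pik3r3 was measured at 14.2 to 116.1 in all libraries, so its intervals are wide: -0.58 (-1.25 to 0.10) in M-CSF, -0.06 (-0.74 to 0.61) in IFNg/LPS and -0.47 (-1.14 to 0.21) in IL-4. Per kb, Pik3r1 and Pik3r2 made up 51.0% and 48.6% of class IA regulatory RNA in WT cells with M-CSF alone, and 47.1% and 52.5% in p110g-/- cells.

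The partners of p110gamma, Pik3r5 and Pik3r6, which neighbour each other in the RefSeq annotation, were not called lower where it was. The Pik3r5 signals were 12130.6, 10313.8 and 11856.4 for WT and 14751.5, 12777.5 and 13054.0 for p110g-/- libraries in M-CSF. In IL-4 they were 8764.5, 7926.3 and 8035.6 in WT and 9559.8, 8773.4 and 9873.6 in p110g-/- libraries. All 3 p110g-/- libraries were above all 3 WT libraries in both conditions, yet the log2 fold changes of 0.24 (95% interval -0.04 to 0.52, adjusted p = 0.47) and 0.19 (-0.09 to 0.47, adjusted p = 0.58) did not pass. How many of all genes separate in this way was not counted. In M-CSF Pik3r6 stood at 925.7, 951.4 and 889.8 in WT and at 1108.1, 1190.1 and 1096.5 in p110g-/- libraries, again without overlap (0.29, 95% interval -0.12 to 0.71, adjusted p = 0.60). In IL-4 it was 1131.1, 1469.8 and 1447.6 in WT and 1330.1, 2036.9 and 1752.9 in p110g-/- cells, which overlapped (0.33, -0.09 to 0.74, adjusted p = 0.49). Averaged over the 3 stimuli, the Pik3r6 log2 fold change was 0.25 (SE 0.11, adjusted p = 0.17). It passed with only the libraries numbered 2 and 3 (0.30, adjusted p = 0.00084), where it also passed in IL-4 (0.37, adjusted p = 0.0092), and without WT IFNg/LPS library 1 (0.33, adjusted p = 0.025). Per kb the ratio of Pik3cg to Pik3r5 RNA was 0.322 ± 0.0359 in WT and 0.103 ± 0.0116 in p110g-/- M-CSF.

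In IFNg/LPS the libraries numbered 1 of both genotypes had the highest signals of the class IB genes. Pik3r5 was 11711.8 in WT library 1 and 11826.8 in p110g-/- library 1, against 8267.2 to 9600.4 in the other 4. Pik3r6 was 1910.4 and 1878.3 in the libraries numbered 1, against 1116.5 to 1368.7 in the others, the same order as for Pik3cg and for Pik3cd (10352.1 and 10484.6 against 8624.4 to 8937.4). With group means subtracted, Pik3cg correlated over the 18 libraries with Pik3r5 at r = 0.75, Pik3r6 at 0.66 and Pik3cd at 0.55, and with Pik3r2 at -0.62. These are descriptions over libraries that share groups and numbers. Most of the Pik3cg spread within groups lay in IFNg/LPS (SD 654 in WT and 1178 in p110g-/- cells, against 71.2 to 188 in the other groups). The values of r therefore rest mainly on the IFNg/LPS libraries. Between genotypes the log2 fold changes of Pik3r5 and Pik3r6 in IFNg/LPS were -0.06 (95% interval -0.34 to 0.22) and 0.13 (-0.28 to 0.55).

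Pik3ap1 was lower in p110g-/- macrophages over the average of the 3 stimuli. Its average log2 fold change was -0.35 (SE 0.09, adjusted p = 0.020, limma), and the adjusted p was at most 0.048 in 27 alternatives. Over this average, 2 of 10 members were called lower (Pik3cg and Pik3ap1) and 0 higher by limma, edgeR and DESeq2. By limma the shares of all tested genes were 6.52% lower and 5.29% higher. At an unadjusted p under 0.05, 1 member was higher (Pik3r6) and 3 differed in either direction, against 25.9% of all tested genes in either direction. In M-CSF the Pik3ap1 signals were 25394.3, 19895.5 and 21274.0 in WT and 21827.8, 16717.2 and 20662.7 in p110g-/- libraries, which overlapped. In IFNg/LPS they were 66095.7, 55711.8 and 53543.6 in WT and 50221.5, 41674.1 and 41151.3 in p110g-/- libraries. In IL-4 they were 9968.1, 7720.6 and 7624.5 in WT and 7564.6, 5072.7 and 5643.8 in p110g-/- libraries. The genotypes did not overlap in IFNg/LPS or IL-4, and within each number p110g-/- was lower than WT, at 0.657 to 0.971 of it. The share of all genes for which this holds was not counted.

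By single stimulus the Pik3ap1 difference did not pass. The log2 fold changes were -0.17 in M-CSF (adjusted p = 0.76), -0.40 in IFNg/LPS (0.10) and -0.48 in IL-4 (0.13). With the replicate number as a block, where same-numbered libraries deviated together in IFNg/LPS, the adjusted p there was 0.0031, and with the libraries numbered 2 and 3 only it was 0.0059. In IL-4 it was 0.0023 with the block, although the numbers do not pair there, 0.0021 without the libraries numbered 1 and 0.027 without p110g-/- IL-4 library 1 (-0.65). Neither test of a difference in this effect between a stimulus and M-CSF passed (-0.23, adjusted p = 0.66 for IFNg/LPS and -0.31, adjusted p = 0.86 for IL-4).

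**Figure D4:**
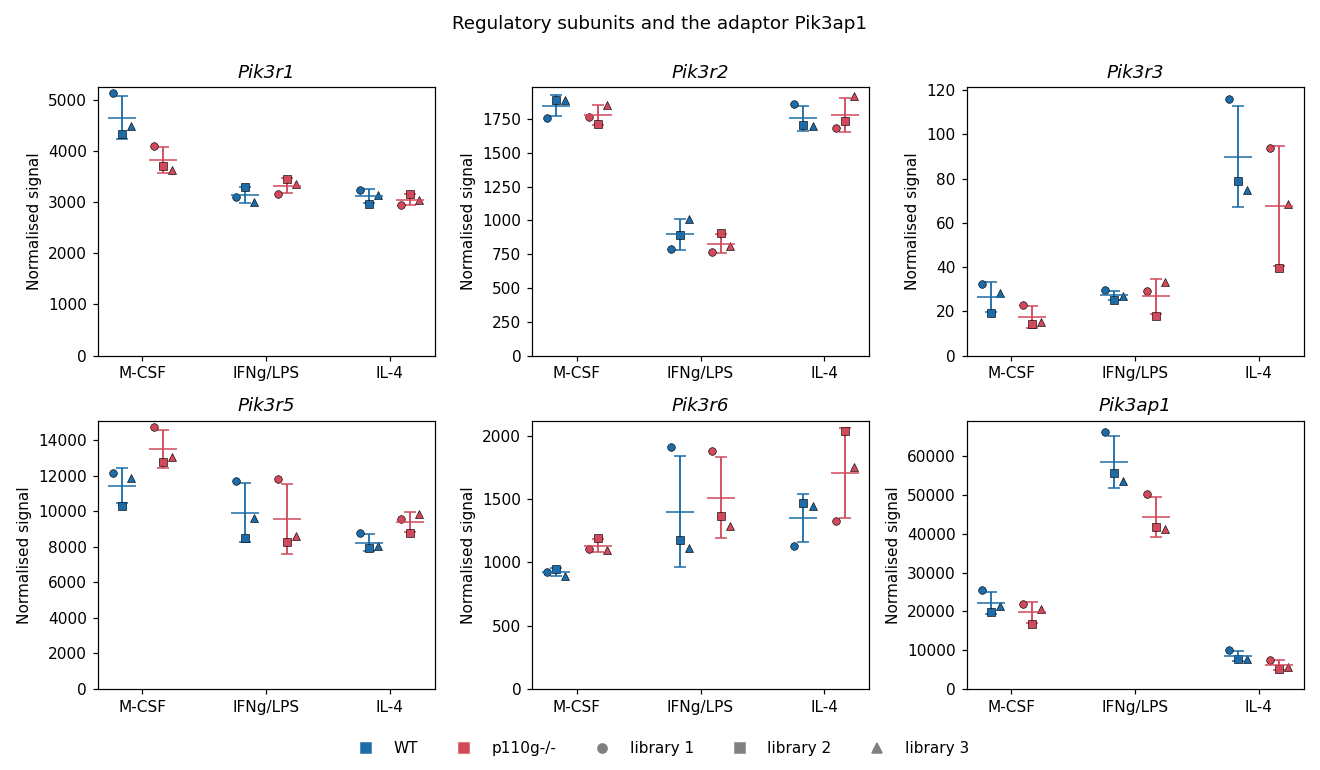
Normalised signal of the 5 regulatory subunit genes and the adaptor Pik3ap1 in each library (symbols), with the mean and SD of 3 libraries, in WT (blue) and p110g-/- (red) macrophages. Pik3r5 and Pik3r6 lie higher in p110g-/- M-CSF libraries than in WT, Pik3ap1 lies lower in p110g-/- IFNg/LPS and IL-4 libraries, and Pik3r2 is lowest in IFNg/LPS in both genotypes. By limma these differences of Pik3r5, Pik3r6 and Pik3ap1 did not pass in those single stimuli.

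IFNg/LPS raised the adaptor Pik3ap1 and lowered the p85 genes Pik3r1 and Pik3r2. In WT cells 6 of 10 members were called, 3 higher and 3 lower, against 36.3% higher and 37.5% lower of all tested genes (73.8% in all). Pik3ap1 rose from 22188 ± 2861 to 58450.4 ± 6709 (log2 fold change 1.40, SE 0.16, adjusted p = 8.2e-07), Pik3cb rose by 0.37 (adjusted p = 0.0034) and Pik3r6 by 0.56 (adjusted p = 0.017, limma). The Pik3r6 call ended without WT IFNg/LPS library 1 (0.31, adjusted p = 0.11). Pik3r2 fell to 896 ± 112 from 1849 ± 76.8 (-1.05, SE 0.09, adjusted p = 2.9e-08), and Pik3r1 fell by 0.57 on the log2 scale (adjusted p = 2.6e-06). The Pik3r2 libraries held 1760.7, 1893.3 and 1894.3 in M-CSF and 786.9, 891.7 and 1010.7 in IFNg/LPS, far from overlap. Pik3cg fell as well (-0.91, adjusted p = 0.0026). Pik3r5 did not pass (-0.21, adjusted p = 0.15) except with the replicate number as a block (adjusted p = 0.036), in a fit without libraries numbered 1 (-0.29, adjusted p = 0.0060) and without WT IFNg/LPS library 1 (-0.34, adjusted p = 0.031). Pik3cd, at 0.20 (adjusted p = 0.11), passed without WT M-CSF library 2 (0.30, adjusted p = 0.026).

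Of the members, 4 responded to IFNg/LPS where p110gamma was lost, 1 higher and 3 lower, against 36.2% and 36.8% of tested genes (73.0% in all). Pik3ap1 rose (1.17, adjusted p = 6.1e-06), and Pik3r2 (-1.10, adjusted p = 1.6e-08), Pik3r5 (-0.52, adjusted p = 0.0023) and Pik3r1 (-0.20, adjusted p = 0.020) fell. The Pik3r1 call ended without p110g-/- M-CSF library 1 (-0.14, adjusted p = 0.10), p110g-/- IFNg/LPS library 1 (-0.16, adjusted p = 0.078) or the libraries numbered 1 (-0.11, adjusted p = 0.13). The remaining Pik3cg RNA gave 0.16 (95% interval -0.34 to 0.66), but its direction rested on single libraries: it was -0.21 without p110g-/- IFNg/LPS library 1 (adjusted p = 0.24), -0.24 without the libraries numbered 1 (adjusted p = 0.16), and 0.48 without p110g-/- IFNg/LPS library 2 (adjusted p = 0.039). Pik3cb passed without p110g-/- IFNg/LPS library 1 (0.26, adjusted p = 0.023), and Pik3r3 without library 2 of that group (0.83, adjusted p = 0.039). Pik3r6, at 0.40 (adjusted p = 0.079), passed in a fit of the 6 libraries compared (adjusted p = 0.037). Without the libraries numbered 1, Pik3cb (0.26, adjusted p = 0.0018) and Pik3r6 (0.21, adjusted p = 0.031) passed as higher and Pik3cd (-0.17, adjusted p = 0.036) as lower. None of the 10 members passed the genotype by IFNg/LPS interaction by limma or edgeR, against 1.02% higher and 1.42% lower of tested genes (2.44% in all). At an unadjusted p under 0.05 there were 2 (Pik3cg and Pik3r1), against 17.4% of all tested genes, and DESeq2 called the same number. The Pik3r1 interaction was 0.37 (SE 0.10, adjusted p = 0.065), and 0.42 without p110g-/- M-CSF library 1 (adjusted p = 0.049).

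IL-4, given for 24 h longer than M-CSF alone so that time and stimulus cannot be told apart, gave another pattern. In WT 7 of 10 members were called: 2 rose and 5 fell, against 22.9% and 21.1% of tested genes. In p110g-/- cells 2 rose and 7 fell, against 22.7% and 21.2%, and 43.9% of tested genes passed in either direction in each genotype. Pik3r3 rose: its WT signals were 32.3, 19.2 and 28.1 in M-CSF and 116.1, 78.8 and 75.0 in IL-4. Its p110g-/- signals were 23.0, 14.2 and 15.2 in M-CSF and 94.0, 39.7 and 68.7 in IL-4. The log2 fold changes were 1.73 in WT (adjusted p = 0.00047) and 1.84 in p110g-/- cells (adjusted p = 0.00026), though Pik3r3 remained 1.73% ± 0.348 of class IA regulatory RNA per kb in WT IL-4. Pik3r6 was also called higher, by 0.54 and 0.57 (adjusted p = 0.035 and 0.027). That call ended without any 1 of the 3 WT M-CSF libraries or WT IL-4 library 2 or 3 (adjusted p 0.061 to 0.12), and without p110g-/- M-CSF library 1 or 3 or p110g-/- IL-4 library 2 or 3 (0.067 to 0.12).

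The adaptor Pik3ap1 fell to 8438 ± 1326 in WT IL-4 (-1.40, adjusted p = 5.3e-06) and to 6094 ± 1305 in p110g-/- IL-4 from 19735.9 ± 2678 (-1.71, adjusted p = 6.4e-07). Pik3ca, Pik3cg, Pik3r1 and Pik3r5 fell in both genotypes, by 0.28, 0.75, 0.58 and 0.47 on the log2 scale in WT and by 0.27, 0.97, 0.32 and 0.52 in p110g-/- cells. Their adjusted p was at most 0.017 in WT and at most 0.0045 in p110g-/- cells, and the WT Pik3cg call ended without WT IL-4 library 2 (adjusted p = 0.055). Pik3cb was called in p110g-/- cells (-0.87, SE 0.10, adjusted p = 5.2e-06), whereas its WT value was -0.07 (adjusted p = 0.60). Pik3cd was called in p110g-/- cells too (-0.36, adjusted p = 0.014), and had -0.12 in WT (adjusted p = 0.38). The Pik3cd call ended without p110g-/- M-CSF library 3 (adjusted p = 0.0503) or p110g-/- IL-4 library 1 (0.054), and its interaction value was -0.23 (adjusted p = 0.83). The 2 responses of a genotype share its M-CSF libraries, so their values are set side by side and not compared.

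**Figure D5:**
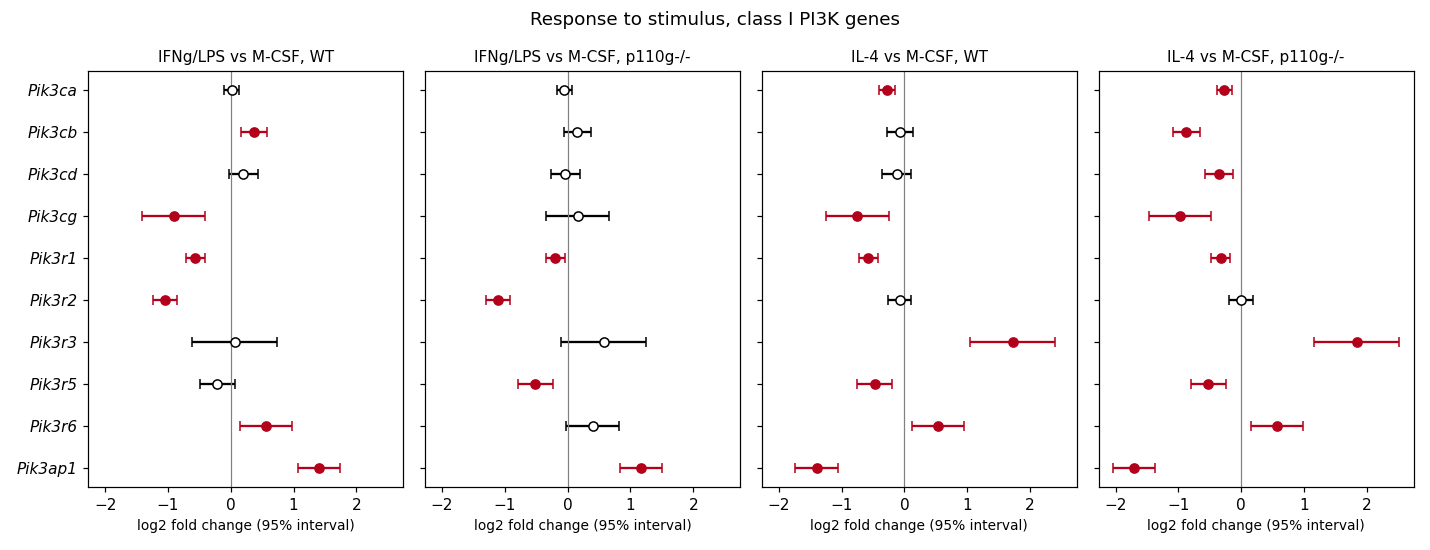
Log2 fold change of each member with IFNg/LPS or IL-4 against M-CSF within each genotype, with 95% intervals from limma; filled red points passed at an adjusted p of 0.05. Pik3ap1 lies right of 0 with IFNg/LPS and left of it with IL-4 in both genotypes, Pik3r2 falls with IFNg/LPS, and Pik3r3 rises with IL-4.

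The upstream DNA of 4 members is shown because their RNA moved with stimulus in different ways: Pik3cg fell with both stimuli in WT, Pik3ap1 rose with IFNg/LPS and fell with IL-4, Pik3r1 fell with both, and Pik3r3 rose with IL-4. Each is the 250 bases before a RefSeq transcription start (GRCm38.p6), 5′ to 3′ on the gene's strand. It is in lower case, with matches to 4 searched motifs in capitals, and lies outside the exons annotated in GENCODE M21.
Pik3cg, chr12:32208660-32208909, minus strand: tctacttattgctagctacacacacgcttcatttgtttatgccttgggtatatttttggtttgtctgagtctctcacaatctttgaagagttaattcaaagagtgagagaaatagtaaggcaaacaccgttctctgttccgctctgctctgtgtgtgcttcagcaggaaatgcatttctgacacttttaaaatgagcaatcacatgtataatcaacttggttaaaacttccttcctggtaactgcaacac
Pik3ap1, chr19:41385103-41385352, minus strand: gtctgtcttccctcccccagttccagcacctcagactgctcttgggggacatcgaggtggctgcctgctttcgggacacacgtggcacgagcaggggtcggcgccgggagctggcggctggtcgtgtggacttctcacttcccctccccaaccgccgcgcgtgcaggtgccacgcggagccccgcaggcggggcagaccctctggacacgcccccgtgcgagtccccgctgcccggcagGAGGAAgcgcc
Pik3r1, chr13:101768218-101768467, minus strand: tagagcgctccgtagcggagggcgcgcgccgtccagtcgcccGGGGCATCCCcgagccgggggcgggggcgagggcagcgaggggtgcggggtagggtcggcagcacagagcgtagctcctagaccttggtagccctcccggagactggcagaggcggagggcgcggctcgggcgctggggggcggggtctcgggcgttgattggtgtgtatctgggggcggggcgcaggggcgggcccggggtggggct
Pik3r3, chr4:116221358-116221607, plus strand: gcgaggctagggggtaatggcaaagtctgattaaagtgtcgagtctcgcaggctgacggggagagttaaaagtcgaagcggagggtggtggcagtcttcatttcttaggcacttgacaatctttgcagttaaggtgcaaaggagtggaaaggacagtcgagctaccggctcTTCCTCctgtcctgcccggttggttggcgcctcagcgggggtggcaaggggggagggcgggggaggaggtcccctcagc
The searched motifs, on both strands, were GAGGAA (core of PU.1, the macrophage lineage factor; 23.3% of all 32851 such windows hold it), TTC and GAA with any 4 bases between them (preferred by STAT6; 5.85%), GGGA and CC with any 4 bases between them (NF-kB; 17.6%) and GAAA and GAAA with any 2 bases between them (interferon response; 2.98%). None of the matches shown overlap. The capitals mark a PU.1 core that begins 11 bases before the Pik3ap1 start, another 79 bases before that Pik3r3 start, and an NF-kB match 208 bases before that Pik3r1 start. No searched motif was found in the Pik3cg window shown, which belongs to the first of 2 listed starts. The window of the other start holds PU.1 cores 189 and 152 bases before it. Of that window's 250 bases, 142 lie in an annotated exon, and both cores lie downstream of the first start. The Pik3r3 window shown is 1 of 3, of which another also holds a PU.1 core, and the Pik3r1 window is 1 of 2. That Pik3r3 window reaches past the first listed Pik3r3 start, and its marked core lies downstream of that first start. The windows differ in base composition: G and C make up 38.8% of the Pik3cg window, with 3 CG pairs, and 71.2%, 76.4% and 58.8% of those of Pik3ap1, Pik3r1 and Pik3r3, with 23, 30 and 12 CG pairs, against medians of 52.4% and 6 over all windows. Of the 10 members 9 had an entry (Pik3r6 did not), with 15 windows in all. A match is a description of letters and shows no binding.

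The PI3Ks of other classes were measured alongside. Class II and III enzymes make PI3P and PI(3,4)P2 and serve endocytosis and autophagy. Of the 5 genes Pik3c2a, Pik3c2b, Pik3c2g, Pik3c3 (Vps34) and Pik3r4 (its partner p150), 1 was called higher in p110g-/- M-CSF (2.34% of all tested genes passed in either direction). In IFNg/LPS and IL-4 (14.7% and 3.33%) there were 0 by limma, edgeR and DESeq2. At an unadjusted p under 0.05 there were 2 and 1, against 28.9% and 15.0% of all tested genes. The gene called was Pik3c2b, which had 33.8, 38.4 and 26.0 in WT and 80.5, 76.5 and 56.1 in p110g-/- M-CSF libraries (log2 fold change 1.09, adjusted p = 0.044). That call ended without any 1 of the WT M-CSF libraries or p110g-/- M-CSF library 1 or 2, in 7 of 16 alternatives in all (adjusted p up to 0.169). Its sign turned in IFNg/LPS, where WT libraries had 98.9, 77.5 and 67.9 and p110g-/- libraries 59.3, 51.3 and 45.8 (-0.62, adjusted p = 0.13). A fit blocked on replicate number called it there (adjusted p = 0.016), where the numbers pair, and in IL-4 (0.67, adjusted p = 0.029), where they do not. That change of effect passed the interaction test (-1.72, SE 0.38, adjusted p = 0.027), but ended in 6 of 22 alternatives, each of which left out 1 library (adjusted p up to 0.0735): WT M-CSF library 3, p110g-/- M-CSF library 1 or 2, WT IFNg/LPS library 2, or p110g-/- IFNg/LPS library 2 or 3. Pik3c2a, Pik3c3 and Pik3r4 stayed between 1528.2 and 3407.5 in all libraries, and Pik3c2g between 14.9 and 33.1.

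Genes that feed into class I PI3K were measured too. Of 23 tested receptors, adaptors, Ras proteins and G protein subunits, 1 was called higher in p110g-/- M-CSF, 3 higher and 8 lower in IFNg/LPS (8 in all by edgeR), and 1 lower in IL-4, against 2.34%, 14.7% and 3.33% of all tested genes in either direction. Averaged over stimuli, 3 were higher and 4 lower (11.8% of all tested genes in either direction). Gab2, an adaptor that brings p85 to receptors, averaged -0.25 (adjusted p = 2.7e-05), C5ar1, the complement C5a receptor that signals through G proteins, -0.64 (adjusted p = 0.00045), and the Ras relative Mras 0.73 (adjusted p = 0.00077); each held in all 27 alternatives. In C5ar1 the WT and p110g-/- libraries did not overlap in any stimulus: the signal was 20311 ± 1355 and 16174 ± 1285 in M-CSF, 3904 ± 608 and 2544 ± 265 in IFNg/LPS, and 3198 ± 278 and 1673 ± 478 in IL-4. How many of all genes do the same was not counted. By limma C5ar1 did not pass in M-CSF (-0.33, adjusted p = 0.44). It passed in IFNg/LPS (-0.61, adjusted p = 0.025) and IL-4 (-0.97, adjusted p = 0.0037), calls that ended in 5 and 1 of 16 alternatives. In the main fit Gab2 and Mras passed by single stimulus only in IFNg/LPS (-0.42 and 1.00). The Mras call there ended in the fit of only the groups compared (adjusted p = 0.065). DESeq2 also called Gab2 in M-CSF and IL-4 (adjusted p = 0.018 and 0.0060). Mras passed in IL-4 by DESeq2 and with the libraries numbered 2 and 3 only.

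Lipid phosphatases undo, and PIP3 effectors read, what class I PI3K makes. Of 8 genes for phosphatases and the p110 inhibitor Pik3ip1, 0 were called in M-CSF or IL-4 by limma or edgeR (2 and 3 at an unadjusted p under 0.05, and 0 and 1 by DESeq2), 1 was higher and 2 lower in IFNg/LPS, and 1 was lower over the average, Inpp5d (SHIP1, which removes the 5-phosphate of PIP3; -0.21, adjusted p = 0.0060). Of 21 effectors, 1 was higher in M-CSF, 1 higher and 3 lower in IFNg/LPS, 1 lower in IL-4, and over the average 1 was higher and 3 lower. For both lists the share of all tested genes in either direction was 2.34% in M-CSF, 14.7% in IFNg/LPS, 3.33% in IL-4 and 11.8% over the average. At an unadjusted p under 0.05 that share was 13.2% in M-CSF and 15.0% in IL-4. The averages of the Rac exchange factors Vav3 and Vav1 were -0.29 and -0.19 (adjusted p = 0.00047 and 0.012), and that of Foxo1, a transcription factor restrained by Akt, was 0.24 (adjusted p = 0.0090), each in all 27 alternatives. The Vav3 difference passed in IFNg/LPS (1627 ± 171 in WT, 879 ± 73.3 in p110g-/- cells), and its interaction against M-CSF passed (-0.81, adjusted p = 0.0013). By limma Vav3 did not pass in M-CSF (-0.08, adjusted p = 0.77) or IL-4, where its sign turned (0.10, adjusted p = 0.61). Vav1 and Inpp5d passed in IFNg/LPS (-0.38 and -0.37, adjusted p = 0.0036 and 0.0054), calls that each ended in 1 of 16 alternatives. Neither passed in M-CSF (adjusted p = 0.83 and 0.21) or IL-4 (0.57 and 0.85). Foxo1 passed in no single stimulus in the main fit (adjusted p = 0.067 to 0.50). It passed in 2 of 16 alternatives in IFNg/LPS (replicate block, and libraries numbered 2 and 3 only). In IL-4 it passed in 2 of 16 as well (libraries numbered 2 and 3 only, and without p110g-/- library 1).

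Over the 18 libraries the gene most like Pik3cg among 12597 with a mean signal of at least 50 was Ptger1, a prostaglandin E2 receptor, at r = 0.90. Tmem38a, Gm14436, 1700010I14Rik and Col18a1 followed at 0.87 to 0.83. Ptger1 was at 2732.5 ± 96.0 in WT and 1687 ± 145 in p110g-/- M-CSF, and at 2240 ± 138 and 1462 ± 156 in IL-4. With group means subtracted the closest were Sla, an adaptor of Src type, Gm15056, Gm11787, Helb and Eid1, at r = 0.97 to 0.95. Gm15056 is at 0 in all 12 M-CSF and IL-4 libraries, so its r rests on the 6 IFNg/LPS libraries, and its Spearman rho was 0.42, against 0.78 to 0.89 for the other 4. Like Pik3cg, Sla was highest in IFNg/LPS in the libraries numbered 1, at 6671.6 in WT and 8165.6 in p110g-/- cells against 1901.2 to 3545.5 in the other 4. These values of r describe likeness over 18 libraries that share groups, and no test was made of them. With group means subtracted, most of the Pik3cg spread lay in the IFNg/LPS libraries. The r of Sla, Gm11787, Helb and Eid1 therefore rest mainly on those libraries too.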

How the data were processed

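The deposited table gives, per gene, a signal for each of 18 libraries: reads per gene over a library-wide factor, given to 1 decimal, as the values themselves show. Per the submitters' processing notes, CASAVA 1.8.2, Bowtie2 and DESeq were used with build mm9; the counting method and strand are not given in the sources used here. In each library 100% of the values of up to 2000 reads were whole multiples of 1 step, to within 0.1 of normalised signal. A step, the signal of 1 read, was 0.717 to 1.58. Whole reads were therefore recovered for edgeR 4.0.16 and DESeq2 1.42.0, which called 2 members each in M-CSF and in IL-4. The main test was limma 3.58.1 (R 4.3.3) on log2(value + 1), with 6 group means, trend and robust moderation and 12 residual degrees of freedom, so fold changes are on that scale and understate changes of low genes such as Pik3r3. The 15627 genes that reached 10 in 3 or more libraries entered the test, with Benjamini-Hochberg adjustment over all of them at 0.05. In 5 simulated data sets for the M-CSF genotype effect, limma, on 15297 to 15325 genes, recovered 95.6% of changes of 1 and 24.2% of changes of 0.5 (log2). Its false calls averaged 5.68% (2.42% to 10.5% per data set), and those of DESeq2, on 15627 genes, 11.6% (5.43% to 14.9%), above the 5% aimed at; the self-test's limit of 10% was set on the average, after 1 data set had exceeded it, and DESeq2 was not held to it. The simulated libraries were independent, with the same setting of spread for every gene and no effect of stimulus, and genes of low level were left unchanged. Real genes differ in spread and same-numbered libraries can deviate together, so these rates need not hold for single members. Alternatives were other pseudocounts, no filter, TMM rescaling, plain moderation, fits of only the groups compared, the replicate number as a block, edgeR, DESeq2 and leaving libraries out. The labels number libraries 1 to 3 without saying what a number marks; deviations from group means correlated above 0.1 in every same-numbered pair for the genotype effect in IFNg/LPS (0.546, 0.340 and 0.256), both IL-4 responses, and the WT response to IFNg/LPS, and not elsewhere. Named genes are the members, the other PI3K classes, up to 3 genes per pathway list with the smallest adjusted p in the average genotype effect, and the 5 genes most like Pik3cg by each measure. Members and lists were chosen with earlier results of these data known. Counting floors cover counting error only. Promoter windows are from RefSeq (GRCm38.p6), and lengths from GENCODE M21.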

Additional observations from a re-analysis of the deposited data

How the results depend on the processing

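Of 100 results (10 members in 10 comparisons), 32 were called, 25 of them in every alternative run, and 52 of the others stayed uncalled in every one; no call reversed its sign. TMM rescaling moved the median of all tested genes by at most 0.02 in any library. The count of members called in the M-CSF genotype effect (2) was 1 with no filter on low values, 1 without trend and robust settings, 1 in the fit of only the groups compared and 1 to 2 when leaving out a library; the member lost was Pik3r1. In IFNg/LPS the count (0) was 1 with the replicate block (Pik3ap1), 2 with the libraries numbered 2 and 3 only, and 0 to 1 when leaving out a library. With the libraries numbered 2 and 3 only, the counts were 4 in IL-4 (2 in the main result) and 4 over the average (2), 2 for the genotype by IFNg/LPS interaction and 1 for the IL-4 interaction (0 in both); DESeq2 gave 2 and 1 for these interactions. Leaving out a library gave 2 to 3 in IL-4, 2 to 3 over the average, 6 to 7 and 3 to 6 for the IFNg/LPS response in WT and p110g-/- cells, 5 to 7 and 7 to 9 for the IL-4 response, and 0 to 1 for each interaction. The cause was not tested. The replicate block, where numbers did not meet the pairing check, called Pik3ap1 in the IL-4 genotype effect (adjusted p = 0.0023) and Pik3r3 in the p110g-/- IFNg/LPS response (0.026); beside these and the values given above it changed no call of a member.

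Over all genes, calls rose from 365 to 555, 673 and 688 (M-CSF genotype effect; replicate block, DESeq2, libraries 2 and 3 only), from 520 to 921 and 2285 (IL-4; DESeq2, libraries 2 and 3 only), and from 1846 to 3537 (average; libraries 2 and 3 only). In IFNg/LPS they went from 2303 to 708 (6 libraries alone) or 4166 (libraries 2 and 3 only). For the IFNg/LPS interaction 381 became 211, 716, 892 and 1708 (groups compared alone, block, DESeq2, libraries 2 and 3 only), and for the IL-4 interaction 0 became 10, 2, 8, 77 and 385 (pseudocount 10, plain moderation, block, DESeq2, libraries 2 and 3 only). Leaving out a library gave 239 to 336, 1466 to 2728, 239 to 727 and 1385 to 2449 for the genotype effects in that order of M-CSF, IFNg/LPS, IL-4 and average, and 183 to 633 and 0 to 89 for the interactions. Depth limits Pik3r3 most, with at most 116.1 in any library.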

Other observations

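Inpp4b, a phosphatase that removes the 4-phosphate of PI(3,4)P2, was the member of the phosphatase list called higher in p110g-/- IFNg/LPS; it is named here after its values were seen. Its signals were 23.6, 17.7 and 26.8 in WT and 226.8, 196.5 and 209.5 in p110g-/- libraries, or 3.18 as log2 fold change (SE 0.38, adjusted p = 5.7e-05, limma). In M-CSF the order was the other way, with 119.8, 41.1 and 44.4 in WT and 37.9, 17.5 and 31.4 in p110g-/- libraries (-1.10, adjusted p = 0.18). The difference between these effects passed the interaction test (4.28, adjusted p = 0.00070), and both calls held in every alternative run. In IL-4 the libraries of both genotypes held 10.8 to 25.8.

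Calls on the phosphatase list with each stimulus are given here beside the shares of all tested genes. With IFNg/LPS most tested genes were called too (73.8% in WT and 73.0% in p110g-/- cells). With IFNg/LPS 5 of 8 rose and 3 fell in WT, and 5 rose and 2 fell in p110g-/- cells, against 36.3% higher and 37.5% lower of all tested genes in WT and 36.2% and 36.8% in p110g-/- cells. With IL-4, 1 rose and 6 fell in WT and 1 rose and 4 fell in p110g-/- cells, against 22.9% and 21.1%, and 22.7% and 21.2%, of all tested genes. Of 23 tested inputs to class I PI3K, 9 rose and 10 fell with IFNg/LPS in WT and 7 rose and 14 fell in p110g-/- cells, against 73.8% and 73.0% of all tested genes in either direction. With IL-4, 2 rose and 10 fell in WT and 3 rose and 10 fell in p110g-/- cells, against 43.9% in each.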
